A study of Mus musculus with 9 samples.

Results

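The mitochondrial ribosome is assembled in the organelle from RNAs encoded by mitochondrial DNA and from proteins whose genes lie in the nucleus. It translates the few membrane subunits of the respiratory chain that mitochondrial DNA still encodes, and its activity is therefore of particular weight in heart muscle cells, which are packed with mitochondria. Most genes of its large subunit carry *Mrpl* symbols and most of its small subunit *Mrps* symbols. The members described here are the nuclear genes whose symbol is *Mrpl* or *Mrps* followed by a number and at most 1 letter. This rule finds 68 of the 15146 gene symbols listed in the deposited tables, 40 with *Mrpl* and 28 with *Mrps* symbols. By the structure of the mammalian ribosome, 42 of them belong to the large subunit, *Mrps18a* and *Mrps30* among them, and 25 to the small subunit. The remaining gene, *Mrps36*, encodes a protein now assigned to the 2-oxoglutarate dehydrogenase complex and was kept because the symbol rule includes it.

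RNA was sequenced from neonatal rat ventricular myocytes (NRVMs), heart muscle cells isolated from Sprague Dawley rats aged 1 or 2 days. All cells were kept for 48 h in culture and then infected at a multiplicity of infection (infectious units per cell) of 50, as the study's methods give it for these cells, with an adenovirus whose CMV promoter drives the inserted gene and which also carries a red fluorescent protein. The insert was LacZ (bacterial β-galactosidase, the control virus), mouse Nrf1 (gene *Nfe2l1*) or mouse Nrf2 (gene *Nfe2l2*), and RNA was collected 48 h after infection from 3 samples per group. The labels name the mouse as organism although the cells are from the rat, and nothing in them says whether the samples of a group were separate cultures, so p-values measure only the spread between these samples. The Nrf1 of this study is a cap'n'collar factor related to Nrf2. It is not nuclear respiratory factor 1, a known regulator of mitochondrial genes that owns the gene symbol *Nrf1*.

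The deposited values are group means of normalised read counts. They could be resolved into the whole reads of the individual libraries, which hold between 7874461 and 11960378 reads each. The libraries keep no replicate number, and the letters a, b and c only name them within a group. *Nfe2l2* had 3472, 3399 and 3493 normalised reads in the LacZ libraries, 2815, 2894 and 2869 in the Nrf1 libraries and 78772, 77443 and 67554 in the Nrf2 libraries, which matches the labels of the Nrf2 group. *Nfe2l1* was not analysed here, so the label of the Nrf1 group was not checked in this way. The cardiomyocyte markers at hand, 7 of 8 listed, were present in every library and summed to between 10327 and 12190 reads per 1000000 reads of the library (RPM). Single markers moved in both directions with Nrf1, where *Actc1* (1.545-fold) and *Ryr2* (1.78-fold) rose and *Tnnt2*, *Myh6*, *Tnni3* (0.512-fold) and *Myl2* (0.5002-fold) fell by limma. With Nrf2, 5 of the 7 rose and 1 fell. Markers of other cells were present too and differed between groups. The 10 fibroblast markers summed to 13159 to 14063 RPM with LacZ, 3241 to 3489 with Nrf1 and 6515 to 7060 with Nrf2, and the 10 leukocyte markers to 196 to 291, 109 to 110 and 97.6 to 111. The 8 endothelial markers summed to 153 to 160, 106 to 118 and 102 to 126 RPM. Not every gene of these lists fell. By limma, 9 leukocyte markers fell and *Csf1r* rose with Nrf1. Of the endothelial markers, 6 fell and 1 rose with Nrf1, and 5 fell and 1 rose with Nrf2. The 5 smooth muscle markers rose in sum, from 3519 to 4170 RPM with LacZ to 6068 to 6171 with Nrf1 and 4760 to 5074 with Nrf2, although 2 of the 5 genes fell in each comparison with LacZ. Most of this sum was *Acta2* (mean of 17500 normalised reads with LacZ, 31321 with Nrf1) and *Tagln* (13593 and 24207), while *Myh11* fell from 1657 to 826 with Nrf1. The study uses *Acta2* as a marker of an immature cardiomyocyte population, so the sum does not mark smooth muscle cells alone. None of these markers was at 0 in every library. In RNA from a whole culture, fewer cells of a type and less RNA per cell cannot be told apart, and the part of these shifts in the results that follow was not tested.

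The members as a group took up a larger share of the reads in both treated groups. Their sum was 2982 ± 68.2 RPM with LacZ (SD, n = 3), 3664 ± 57.6 with Nrf1 and 3247 ± 34.2 with Nrf2. The lowest and the highest LacZ library stood at 2904 and 3030, the Nrf1 libraries at 3619 to 3729 and the Nrf2 libraries at 3219 to 3285, so no group overlapped another. The large subunit stood at 1924 ± 58.5 with LacZ, 2396 ± 29.6 with Nrf1 and 2082 ± 23.9 with Nrf2. The small subunit stood at 1017 ± 9.89, 1229 ± 28.7 and 1115 ± 5.93 RPM. These sums are descriptions and carry no test. For contrast, the 80 genes of the cytosolic ribosome, which translates nuclear messages, summed to 18323 to 19353 RPM with LacZ, 15511 to 15925 with Nrf1 and 17472 to 18236 with Nrf2. The Nrf1 group thus held the most reads for mitochondrial and the fewest for cytosolic ribosomal proteins.

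**Figure D1:**
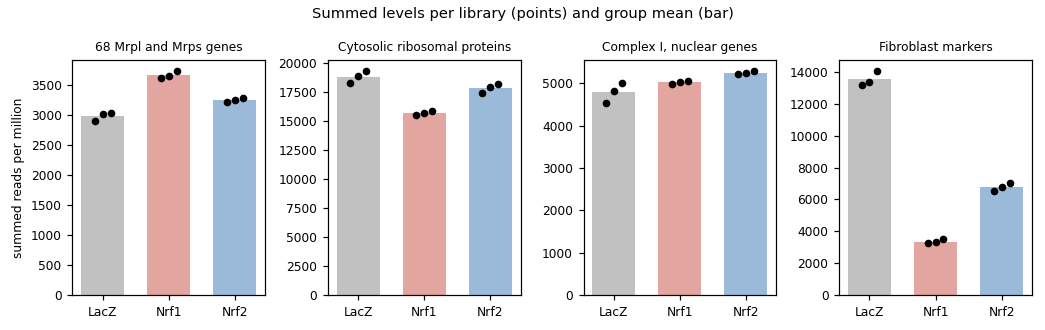
Summed reads per 1000000 reads, RPM (vertical axes, from 0) of the members, the cytosolic ribosomal protein genes, the nuclear genes of complex I and the fibroblast markers; points are the 3 libraries of each group and bars their means. The members are highest with Nrf1 (3619 to 3729), where the cytosolic ribosomal proteins (15511 to 15925) and fibroblast markers (3241 to 3489) are lowest.

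With Nrf1, most mitochondrial ribosomal protein genes rose against LacZ. The samples of each pair were compared per gene with limma on log2(normalised read count + 0.5), a 2-sided test with Benjamini-Hochberg adjustment over all genes whose mean reached 10 in 1 group or both. Of the 67 members tested, 48 rose (71.6%), 4 fell (5.97%) and 15 were not called at an adjusted p under 0.05. Over all 11433 genes tested, 34.3% rose and 32.5% fell. The median log2 difference of the members was 0.37, beside 0.0035 over all genes. The changes were modest in size. The ratio of the group means exceeded 1.5 in 16 members and was below 1/1.5 in none, where 11.9% of all genes lay past 1.5-fold upwards and 18.1% downwards. One member was not tested: *Mrpl53* had 1 read in a single Nrf1 library and none elsewhere.

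Among large subunit genes, *Mrpl55* showed the highest ratio of well-expressed members (mean of 100 or more in 1 group or both). It encodes the counterpart of bacterial protein bL31. Its normalised read counts were 208, 198 and 175 with LacZ, 452, 418 and 456 with Nrf1, and 241, 206 and 243 with Nrf2. The Nrf1 libraries lay far above all others, while the lowest Nrf2 library fell within the LacZ range. The mean rose 2.28-fold with Nrf1 (log2 difference 1.19 ± 0.08 SE, adjusted p = 3.27e-09 by limma). With Nrf2 the rise was smaller but was also called (1.187-fold, adjusted p = 0.0421 by limma). *Mrpl49*, a protein without a bacterial counterpart, stood at 330, 346 and 370 with LacZ, 703, 701 and 710 with Nrf1, and 442, 446 and 370 with Nrf2. Here too the Nrf1 libraries formed a tight group of their own, 2.02-fold above LacZ (adjusted p = 6.47e-10 by limma). *Mrpl45*, which lies at the exit of the peptide tunnel and helps anchor the ribosome to the inner membrane, stood at 851, 879 and 907 with LacZ, 1532, 1529 and 1516 with Nrf1, and 1007, 956 and 1058 with Nrf2. Its 1.73-fold rise with Nrf1 had the lowest adjusted p of the members (2.49e-10 by limma).

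Further large subunit genes past 1.5-fold with Nrf1 were *Mrpl34* (1.695-fold), *Mrpl10* (1.69-fold), *Mrpl22* (1.635-fold), *Mrpl20* (1.61-fold), *Mrpl21* (1.58-fold) and *Mrpl51* (1.51-fold). *Mrpl34* counted as well expressed only through the Nrf1 group, with means of 85.4 with LacZ and 145 with Nrf1. *Mrpl10* encodes the base of the stalk on which copies of the *Mrpl12* protein sit, and *Mrpl22* a protein that lines the peptide tunnel. *Mrpl10* stood at 419, 365 and 407 with LacZ, 684, 664 and 669 with Nrf1, and 500, 479 and 534 with Nrf2, with no overlap between any of the groups. *Mrpl22* stood at 344, 327 and 309 with LacZ, 543, 543 and 519 with Nrf1, and 350, 354 and 366 with Nrf2. The gene with the most reads, *Mrpl17*, rose more modestly, from 1496, 1413 and 1461 to 1673, 1747 and 1802 normalised reads (1.19-fold, adjusted p = 8.14e-05 by limma). In all, 32 of 41 large subunit genes tested rose and 2 fell.

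In the small subunit, 16 of 25 genes rose with Nrf1 and 2 fell. *Mrps10*, whose protein sits in the head of the subunit, rose 2.19-fold, from 125, 135 and 139 normalised reads with LacZ to 293, 312 and 268 (log2 difference 1.13 ± 0.09 SE, adjusted p = 3.11e-08 by limma). Its Nrf2 libraries, at 189, 230 and 209, lay between the other groups without touching either. *Mrps12* encodes the counterpart of bacterial S12, a protein of the decoding centre. It stood at 271, 227 and 230 with LacZ, 462, 450 and 456 with Nrf1, and 352, 391 and 384 with Nrf2, again 3 separate levels, and rose 1.88-fold with Nrf1 (adjusted p = 5.00e-08 by limma). *Mrps28* stood at 89.5, 118 and 133 with LacZ, 197, 222 and 214 with Nrf1, and 189, 164 and 169 with Nrf2. It has few reads and a wide LacZ range, and rose 1.86-fold (adjusted p = 1.52e-05 by limma). *Mrps18c* (1.81-fold), *Mrps23* (1.67-fold) and *Mrps11* (1.565-fold, from 213 to 333) were the other small subunit genes past 1.5-fold.

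**Figure D2:**
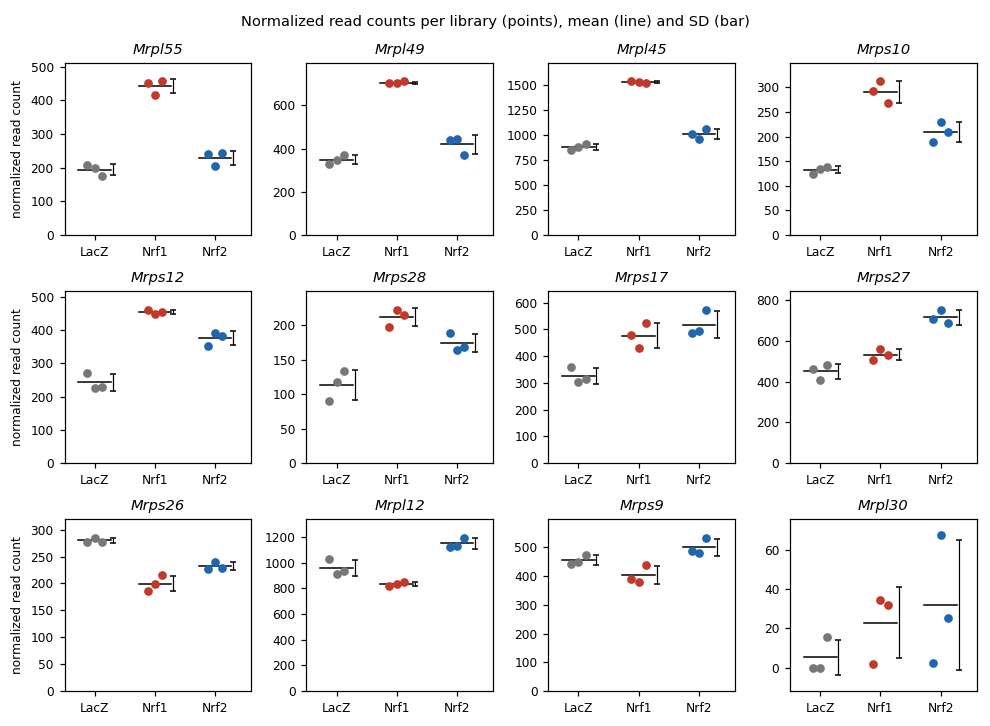
Normalised read counts of 12 members (vertical axes, all from 0 except *Mrpl30*, whose axis starts below 0 to hold its error bar) in the 3 libraries of each group; lines are means and bars the SD. *Mrpl55*, *Mrpl49* and *Mrpl45* are highest in the Nrf1 libraries (418 to 456, 701 to 710 and 1516 to 1532), *Mrps27* is highest with Nrf2 (687 to 755), and *Mrps26* is lowest with Nrf1 (186 to 215).

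The cutoff of 1.5-fold cuts through a continuous range. Just inside it lay *Mrpl51* (1.51-fold) and *Mrps11*, just outside it *Mrps31* (1.475-fold) and *Mrps17* (1.47-fold), and all 4 were called higher by limma. The 16 members past the cutoff include *Mrpl30*, which has hardly any reads in these libraries. Its normalised reads were 0, 0 and 15.4 with LacZ, 1.89, 34.1 and 32.0 with Nrf1, and 2.49, 67.4 and 25.3 with Nrf2. The groups overlap, although it was called in both comparisons with LacZ (adjusted p = 0.0307 with Nrf1 and 0.0288 with Nrf2 by limma). The call with Nrf1 was lost without LacZ library a or b or Nrf1 library b or c (adjusted p of 0.0916 to 0.142), and that with Nrf2 without LacZ library a or b or Nrf2 library b or c (0.0960 to 0.152). Without *Mrpl30*, 15 members with a mean of at least 100 lay past 1.5-fold with Nrf1 and 6 with Nrf2. Of the 15, *Mrpl34* reached that mean with Nrf1 but not with LacZ.

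The 4 members that fell with Nrf1 were *Mrps26*, *Mrpl40*, *Mrpl12* and *Mrps9*. *Mrps26*, a small subunit protein found only in mitochondria, stood at 277, 285 and 277 normalised reads with LacZ, 186, 199 and 215 with Nrf1, and 227, 241 and 228 with Nrf2. The groups did not overlap, and the gene fell in both comparisons with LacZ, with log2 differences of -0.49 ± 0.08 SE (adjusted p = 7.27e-05 by limma) for Nrf1 and -0.27 ± 0.07 SE (adjusted p = 0.00562 by limma) for Nrf2. *Mrpl40* stood at 86.4, 94.3 and 93.6 with LacZ and 72.0, 70.2 and 74.3 with Nrf1 (adjusted p = 0.0280 by limma), and its call was lost without LacZ library b or c or Nrf1 library a or b (adjusted p of 0.0585 to 0.0733). *Mrps9* stood at 442, 449 and 474 with LacZ, 388, 379 and 438 with Nrf1, and 486, 479 and 533 with Nrf2. Its fall with Nrf1 was small (log2 difference -0.18 ± 0.07 SE, adjusted p = 0.0261 by limma), and it was lost when LacZ library c, Nrf1 library a or Nrf1 library b was left out (adjusted p of 0.0977, 0.0921 and 0.118). *Mrps35* (0.901-fold) and *Mrpl50* (0.975-fold), the other well-expressed members with the lowest ratios, were not called (adjusted p = 0.0925 and 0.657 by limma).

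*Mrpl12* was the only member called in opposite directions with Nrf1 and Nrf2. Its protein, the counterpart of the bacterial stalk protein L7/L12, is also known to bind the mitochondrial RNA polymerase. The normalised read counts were 1027, 915 and 934 with LacZ, 816, 832 and 853 with Nrf1, and 1123, 1130 and 1195 with Nrf2, in 3 ranges that did not overlap. The log2 difference from LacZ was -0.20 ± 0.05 SE with Nrf1 (adjusted p = 0.00301 by limma) and 0.26 ± 0.05 SE with Nrf2 (adjusted p = 6.15e-04 by limma). Compared directly, *Mrpl12* was 1.37-fold higher with Nrf2 than with Nrf1, the highest ratio of the well-expressed members in that comparison (adjusted p = 3.80e-08 by limma). *Polrmt*, which encodes the polymerase, stood the other way round. It was higher with Nrf1 than with LacZ (log2 difference 0.38 ± 0.10 SE, adjusted p = 0.00391 by limma), was not called with Nrf2 against LacZ (-0.04, adjusted p = 0.744 by limma), and was lower with Nrf2 than with Nrf1 (-0.43 ± 0.08 SE, adjusted p = 3.07e-04 by limma).

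With Nrf2, the members rose against LacZ by less. Of 67 tested, 41 rose (61.2%), 1 fell (1.49%) and 25 were not called, where 28.6% of the 11609 genes tested rose and 26.0% fell. The median log2 difference was 0.20, beside -0.0017 over all genes. Past 1.5-fold upwards lay 7 of the 67 members, a share near the 9.79% of all genes. None lay past it downwards, against 10.9% of all genes. The count depended on scaling: dividing by the total count of each library instead of the authors' size factors placed the median of all genes at -0.0889 and left 23 members higher and 2 lower. The median of the members was 0.11 under that scaling. Leaving out 1 library at a time left between 31 and 39 members higher. This comparison shares its LacZ libraries with the one above.

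Apart from *Mrpl30*, the genes past 1.5-fold with Nrf2 were all of the small subunit: *Mrps17* (1.599-fold), *Mrps27* (1.585-fold, from 455 to 721), *Mrps10* (1.58-fold), *Mrps12* (1.55-fold), *Mrps28* (1.53-fold) and *Mrps18c* (1.53-fold). *Mrps17* stood at 358, 302 and 313 with LacZ, 477, 429 and 523 with Nrf1, and 485, 495 and 574 with Nrf2, so the treated groups overlapped each other and lay above LacZ. *Mrps27* encodes an RNA-binding pentatricopeptide repeat protein. It stood at 464, 411 and 481 with LacZ, 507, 563 and 531 with Nrf1, and 707, 755 and 687 with Nrf2, clearly highest in the Nrf2 group (log2 difference from LacZ 0.67 ± 0.07 SE, adjusted p = 1.17e-06 by limma). The next members below the cutoff, *Mrpl14* (1.33-fold) and *Mrps14* (1.33-fold), followed after a gap. In the large subunit 28 of 41 genes rose with Nrf2 and none fell, and in the small subunit 12 of 25 rose and 1 fell.

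At the lower end with Nrf2, *Mrps26* was followed by *Mrps16* (0.930-fold), *Mrps2* (0.946-fold), *Mrps34* (0.963-fold) and *Mrpl2* (0.964-fold), none of them called. *Mrpl2*, whose bacterial counterpart lies at the peptidyl transferase centre, stood at 210, 210 and 224 with LacZ, 282, 261 and 304 with Nrf1, and 204, 199 and 218 with Nrf2. Its Nrf2 libraries overlapped the LacZ range and its Nrf1 libraries lay above both. *Mrpl34*, among the well-expressed members the one with the lowest mean in this comparison, was 1.31-fold higher (adjusted p = 0.0181 by limma), a call that was lost without LacZ library c (adjusted p = 0.0578), Nrf2 library a (0.0749) or Nrf2 library c (0.0733). *Mrpl17* was not called with Nrf2 (1.06-fold, adjusted p = 0.0986 by limma).

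**Figure D3:**
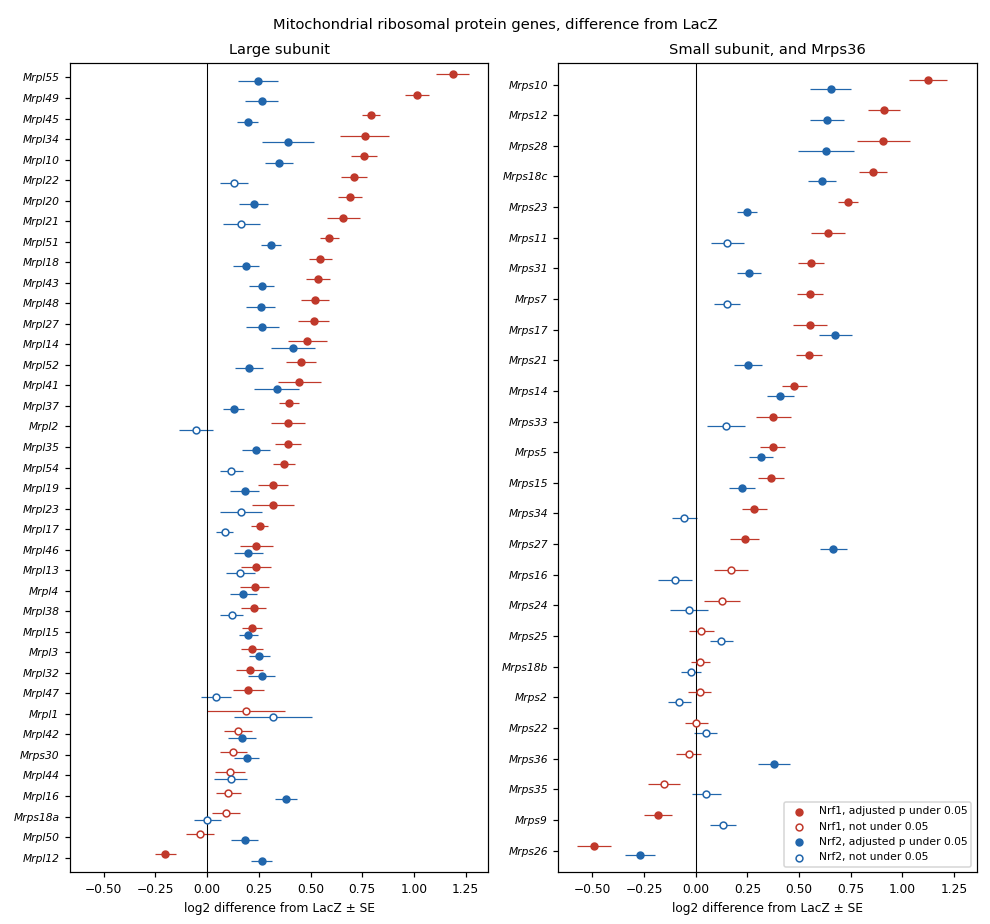
Log2 differences from LacZ (horizontal axis, limma estimate, bars 1 SE) of the 65 members with a mean of at least 100, for Nrf1 in red and Nrf2 in blue; filled points have an adjusted p under 0.05. Red points reach 1.19 (*Mrpl55*) in the large subunit and 1.13 (*Mrps10*) in the small subunit, while the highest blue points are small subunit genes at 0.61 to 0.68.

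The direct comparison of the 2 factors tested their difference itself. Of 67 members, 33 were lower with Nrf2 than with Nrf1 (49.3%), 8 were higher (11.9%) and 26 were not called. Over all 11494 genes tested, 29.8% were lower and 28.8% higher. The median log2 difference of the members was -0.16, beside -0.0045 over all genes. Of all genes, 5.16% were lower and 12.3% higher with Nrf2 by more than 1.5-fold. Of the 67 members, 4 lay past that cutoff (2 after re-centring on the median of genes whose mean reached 100). All 4 were lower with Nrf2, a share near that of all genes, and all were of the large subunit. They were *Mrpl55* (0.519-fold, log2 difference -0.95 ± 0.07 SE, adjusted p = 6.72e-09 by limma), *Mrpl49* (0.593-fold, adjusted p = 1.67e-08), *Mrpl45* (0.658-fold, adjusted p = 7.60e-10) and *Mrpl22* (0.665-fold, adjusted p = 5.75e-08). Outside the cutoff followed *Mrpl21* (0.708-fold) and *Mrps11* (0.708-fold). By limma, 20 of 41 large subunit genes (48.8%) and 13 of 25 small subunit genes (52.0%) were lower with Nrf2.

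Genes higher with Nrf2 than with Nrf1 included, after *Mrpl12*, *Mrps27* (1.34-fold, adjusted p = 2.76e-06 by limma), *Mrps36* (1.33-fold), *Mrps9* (1.24-fold) and *Mrpl16* (1.21-fold). *Mrps36* stood at 377, 381 and 395 with LacZ, 368, 383 and 375 with Nrf1, and 450, 489 and 564 with Nrf2, so that LacZ and Nrf1 libraries overlapped and Nrf2 libraries lay above them. *Mrpl16*, a neighbour of the tRNA binding sites in bacteria, stood at 435, 416 and 434 with LacZ, 451, 482 and 451 with Nrf1, and 555, 559 and 558 with Nrf2. For *Mrps17* no difference between the factors was detected (log2 difference 0.12 ± 0.07 SE, adjusted p = 0.186 by limma). *Mrpl1*, which had the lowest mean of the well-expressed members with Nrf1 against LacZ and between the factors, had LacZ counts of 101, 81.9 and 164 and was not called in any comparison. Its difference between Nrf1 and LacZ (log2 difference 0.19, adjusted p = 0.397 by limma) hung on single LacZ libraries, and became 0.47 (adjusted p = 0.0122) without library c and -0.03 (adjusted p = 0.886) without library b.

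The members were also divided by their current names. By these names, 39 are classed as homologues of bacterial ribosomal proteins and 28 as specific to mitochondria. The names need not follow descent: *Mrps18a* and *Mrps18b* are among the 28, and *Mrps18c* is among the 39. With Nrf1, 32 of 39 bacterial-type genes rose and 2 fell (median log2 difference 0.39), and 16 of 27 mitochondrial ones rose and 2 fell (0.24). The gap lay in the small subunit, where the 15 bacterial-type genes had a median of 0.55 and the 10 mitochondrial ones 0.13. In the large subunit the medians were 0.35 for the 24 genes of bacterial type and 0.37 for the 17 others tested. With Nrf2 the small subunit medians were 0.25 and 0.09, and 9 of 15 genes and 3 of 10 rose (60.0% and 30.0%, beside 28.6% of all genes). Of the 6 small subunit genes past 1.5-fold with Nrf2, 5 are of bacterial type and 1, *Mrps27*, is mitochondrial. The classes were set after the values had been seen. These class medians are descriptions, and no difference between classes was tested.

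**Figure D4:**
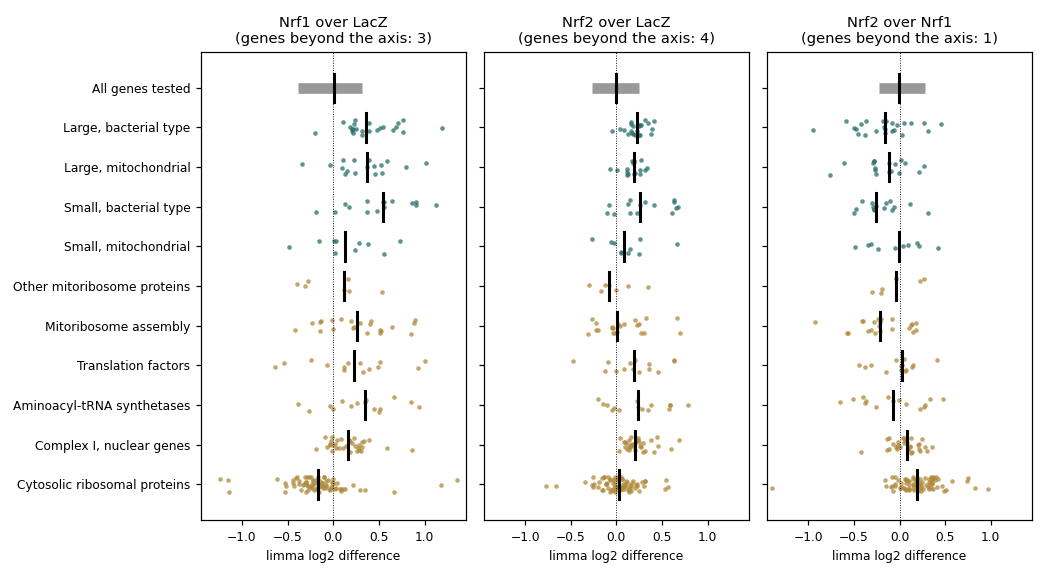
Limma log2 differences (horizontal axes) of single genes (points) in the 4 classes of members, in green, and in related lists, in ochre, for the 3 comparisons; black ticks are medians and the grey bar spans the quartiles of all genes tested. Small subunit genes of bacterial type have the highest median of these rows with Nrf1 (0.55), and cytosolic ribosomal proteins the lowest (-0.17). The classes of members were set after the values had been seen, and no difference between them was tested.

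Further proteins of the same ribosome carry other symbols. Of 7 such genes, 2 rose with Nrf1 (28.6%) and 3 fell (42.9%), beside 34.3% and 32.5% of all genes. *Dap3*, a GTP-binding small subunit protein, stood at 876 to 908 normalised reads with LacZ and 660 to 682 with Nrf1 (log2 difference -0.40 ± 0.05 SE, adjusted p = 1.70e-06 by limma). *Ptcd3* (-0.31) and *Gadd45gip1* (-0.27) also fell, while *Mrp63* (0.54) and *Chchd1* (0.18) rose, and *Aurkaip1* (0.12) and *Ict1* (0.16) were not called. With Nrf2, *Mrp63* rose and *Dap3*, *Gadd45gip1* and *Aurkaip1* fell. In the direct comparison, *Dap3* and *Ptcd3* were higher with Nrf2 than with Nrf1, and *Chchd1* and *Aurkaip1* were lower.

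Genes that assemble and serve the mitochondrial ribosome were followed as lists, which were chosen with earlier results of these data known. The shares of all genes stood at 34.3% higher and 32.5% lower with Nrf1 and at 28.6% and 26.0% with Nrf2. Of 22 assembly genes tested, 13 rose (59.1%) and 3 fell with Nrf1 (median log2 difference 0.26). With Nrf2, 5 rose (22.7%) and 3 fell (0.01), which became 2 higher and 4 lower (-0.07) when scaled by total counts. In the direct comparison 13 were lower with Nrf2 (59.1%, beside 29.8% of all genes) and 1 was higher (4.55%, beside 28.8%). *Ddx28*, a helicase needed for the large subunit, was 1.85-fold higher with Nrf1 (adjusted p = 4.15e-06 by limma) and 1.59-fold higher with Nrf2 (adjusted p = 2.50e-04). Of 14 translation factors and messenger-binding proteins, 8 rose (57.1%) and 2 fell with Nrf1, and 8 rose and 1 fell with Nrf2. *Lrpprc*, which stabilises mitochondrial messages, rose with Nrf1 (1.22-fold, adjusted p = 8.16e-06) and Nrf2 (1.28-fold, adjusted p = 2.43e-06), and its partner *Slirp* 1.99-fold and 1.54-fold. *Tufm*, the mitochondrial elongation factor Tu, rose by 1.08-fold and 1.11-fold (adjusted p = 0.0213 and 0.00879 by limma). *Mrrf*, the ribosome recycling factor, fell with both, to 0.645-fold and 0.717-fold of LacZ.

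Of 15 mitochondrial aminoacyl-tRNA synthetases, 7 rose (46.7%) and 1 fell with Nrf1, and 6 rose (40.0%) and none fell with Nrf2. The nuclear genes of complex I, whose core subunits include products of the mitochondrial ribosome, ended highest with Nrf2 in summed reads: 4537 to 5006 RPM with LacZ, 4995 to 5053 with Nrf1 and 5226 to 5292 with Nrf2. Of 34 genes, 18 rose (52.9%) and 1 fell with Nrf1 (median log2 difference 0.16), and 23 rose (67.6%) and none fell with Nrf2 (0.21). Scaling by total counts left 13 higher and 2 lower with Nrf1 (0.10), and 17 higher and none lower with Nrf2 (0.12). In the direct comparison, 13 were higher (38.2%) and 3 lower (8.82%) with Nrf2, beside 28.8% and 29.8% of all genes. The cytosolic ribosomal protein genes ran against the members. With Nrf1, 39 of 79 fell (49.4%) and 6 rose (7.59%, median -0.17), beside 32.5% and 34.3% of all genes. Between the factors 49 were higher (62.0%) and 1 lower (1.27%) with Nrf2 (median 0.19), where 33 members were lower. Of all genes, 28.8% were higher and 29.8% lower in that comparison. Against LacZ, Nrf2 left 18 cytosolic genes higher (22.8%) and 11 lower (13.9%), both below the shares of all genes (28.6% and 26.0%). Their median of 0.03 turned to -0.06, with 8 higher and 16 lower, when libraries were scaled by their total counts. Many cytosolic ribosomal protein genes have near-identical pseudogene copies, and reads of such genes could be split between copies.

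Of 9 nuclear regulators of mitochondrial genes, 6 fell with each factor (66.7%, beside 32.5% of all genes with Nrf1 and 26.0% with Nrf2). With Nrf1 2 rose (22.2%, beside 34.3% of all genes), and with Nrf2 3 rose (33.3%, beside 28.6%). The gene *Nrf1*, nuclear respiratory factor 1, stood at 226, 208 and 204 normalised reads with LacZ, 164, 170 and 168 with the virus for Nfe2l1, and 167, 172 and 178 with the Nrf2 virus. It was thus lower in both treated groups (adjusted p = 0.00251 and 0.00884 by limma), and the treated groups overlapped. *Gabpa*, the DNA-binding subunit of nuclear respiratory factor 2, rose with both, from 1037, 1108 and 1080 to 1386, 1419 and 1352 with Nrf1 and 1203, 1324 and 1220 with Nrf2 (adjusted p = 2.83e-06 and 0.00183 by limma). Its partner *Gabpb1* fell to 0.693-fold with Nrf1 and 0.808-fold with Nrf2, and the coactivators *Ppargc1a* and *Ppargc1b* moved apart, to 0.753-fold and 1.43-fold with Nrf1. *Tfam*, which packages mitochondrial DNA and starts its transcription, was 0.913-fold with Nrf1 (adjusted p = 0.0409 by limma) and was not called with Nrf2 (0.937-fold, adjusted p = 0.151 by limma).

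Replicate libraries agreed closely for most members. The median coefficient of variation within the groups of a pair was 5.49% with LacZ and 4.48% with Nrf1 in their comparison, and the largest belonged to *Mrpl30* in both. The rise in *Mrpl45* with Nrf1 can be set against this spread: its Nrf1 libraries stood at 1516 to 1532, 1.73-fold above LacZ. Some members have processed pseudogenes or overlap other genes, and although the libraries were stranded and aligned as such, the strand setting of the counting is not given in the sources used here, so the counts of such members could include reads of neighbours or copies.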

How the data were processed

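The submitters' processing notes and the study's methods name FastQC 0.11.4, alignment to the rat genome with HISAT2 2.0.4, removal of duplicate reads with SAMtools 0.1.18, featureCounts 1.6.0 and edgeR 3.20.5. Removing duplicates from single-end reads can lower the highest counts. The authors deposited 3 tables, 1 per pair of groups. Their signal is a group mean of 3 libraries, of read counts that the authors divided by size factors within the pair. The deposited tables also hold the authors' own fold changes, p-values and adjusted p-values, which were not used. They hold 0 columns of single samples.

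A group mean is the sum of each library's whole reads times a fixed step, and every group is listed in 2 tables with different steps, printed to 10 or 15 digits. Genes were solved for the whole reads that give both means. For LacZ 14656 of 14657 genes had exactly 1 solution, for Nrf1 14579 of 14579 and for Nrf2 14746 of 14746. Size factors were recomputed from these reads as the median ratio of a library to each gene's geometric mean over the libraries of the pair. They differed from those in the means by at most 0.0102%. The study's methods name edgeR and do not describe this scaling. The SDs and tests given here rest on these resolved reads, not on deposited values per library. In each table with LacZ, 26 rows whose symbols had turned into dates were left out, 4 of them sharing a symbol with another. The resolved reads per library set the depth, 7874461 to 11960378, and errors are the spread between libraries. Values of all 3 groups given together were scaled with size factors over the 9 libraries.

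Pairs were compared with limma 3.58.1 in R 4.3.3 on log2(normalised count + 0.5) with the authors' size factors, for genes whose mean reached 10 in 1 group or both, with Benjamini-Hochberg adjustment and a threshold of 0.05. In genes with few reads such differences depend on the pseudocount and can depart from the ratio of means, as in *Mrpl30* with Nrf1 (3.08 against 2.14). Folds are ratios of the deposited means. The steps were also run on simulated data, whose highest means were capped and whose spread was set by hand. The outcome of that run is not given here.

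Members were taken by symbol. The members and lists were chosen with earlier results of these data known, and the classes by subunit and by current name were set after the values had been seen. Genes named are, among members with a mean of at least 100, the 5 highest and 5 lowest ratios per comparison, the highest and lowest mean, those past 1.5-fold and the 2 nearest to it on each side, those called in opposite directions, and *Nfe2l2*, *Nfe2l1*, *Nrf1*, *Gabpa*, *Tfam*, *Polrmt*, *Lrpprc* and *Tufm*. Any other gene was named with its values in view. Alternatives were other pseudocounts, filters, fold cutoffs, scalings, a fit of all 9 libraries, leaving out each library and, chosen after seeing the data, voom weights.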

Additional observations from a re-analysis of the deposited data

How the results depend on the processing

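The medians of the members kept their sign under every alternative run, and 47 of 57 counts and medians stayed close to the value given. A count was taken as close if it was within 1.5-fold of the value given. A median was taken as close if it moved by less than the spread between libraries. With Nrf1 against LacZ the median log2 ratio of the members (0.3709) was 0.3169 after centring on the median of genes whose mean reached 100, and 0.3151 with the 7 ribosomal proteins of other symbols added. The number of members past a fold cutoff followed the cutoff: with Nrf1 40 lay past 1.2-fold and 4 past 2-fold, with Nrf2 18 and 1, and between the factors 32 and 0. After re-centring, 2 members in place of 4 lay past 1.5-fold between the factors. Scaling by total counts gave 25 called members with Nrf2 against LacZ in place of 42. It also turned *Mrpl17* with Nrf2 to -0.0012 (adjusted p = 0.982 by limma). Leaving out each library in turn gave 47 to 53 called members with Nrf1, 32 to 40 with Nrf2 and 36 to 42 between the factors. Without single libraries, differences near 0 with Nrf1 changed sign in *Mrpl1* (-0.0293 to 0.4678, negative without LacZ library b) and *Mrpl50* (-0.0767 to 0.0024, positive without Nrf1 library a), and between the factors in *Mrpl30* (-0.9575 to 1.5894, negative without Nrf1 library a or Nrf2 library b). Voom weights, added later, gave 51, 41 and 41 called members in the 3 comparisons. The cause of these shifts was not tested.

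For single named genes, with *Mrpl30* and *Mrpl40*, 619 of 649 values under an alternative kept their direction and their side of the threshold, 21 lost the call, 4 gained it and 5 changed sign. No paired analysis was possible because the deposited columns carry no replicate numbers and the resolved libraries cannot be tied to numbered samples. *Mrpl53*, with 1 read in all, could not be compared at this depth.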
